A study of Mus musculus with 2 samples.

Results

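The Mir23, Mir27 and Mir24 hairpins lie side by side in a pair of paralogous clusters of the mouse genome, Mir23a, Mir27a and Mir24-2 on chromosome 8 and Mir23b, Mir27b and Mir24-1 on chromosome 13. The 6 members were chosen by name, with no threshold on their values, and 5 of them have a row of their own among the 1638 miRNA features of the smRNA-seq table. No row named Mir24-1 was analysed here. Its place on chromosome 13 is taken by a row for Mir3074-1, a hairpin annotated on the other strand of the same stretch. The data came from 1 library of mESCs (E14, wild-type embryonic stem cells) and 1 library of wild-type E15.5 male germ cells of C57Bl/6J background. For naive E14 mESCs the methods give feeder-free, serum-free culture with LIF and inhibitors of MEK and GSK3. The paper does not state the medium of the mESC smRNA-seq library separately. In the labels the germ cells are primordial germ cells, and in the methods prospermatogonia, the name used here. They were taken from embryos of females that carried an Oct-4/GFP transgene, and the number of embryos pooled is not given in the sources used here. As each cell type has 1 library, the differences given below lack a replicate check and no test was made across cell types.

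A miRNA cluster is transcribed as 1 long primary RNA, from which Drosha cuts the hairpins and Dicer the mature miRNAs, so that hairpins of equal transcription can still yield unequal amounts of mature miRNA. The mature miRNA guides Argonaute to target mRNAs mainly through its seed, bases 2 to 8 from the 5′ end. The miR-23, miR-27 and miR-24 families are best known from blood vessels, where they act in angiogenesis, from fat cells, in which miR-27 restrains differentiation, and from T cells and muscle.

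The mature sequences show which products of the clusters can be told apart by their letters. They are printed 5′ to 3′ from RefSeq (GRCm38.p6) with the seed in capitals. The RefSeq set used here had no entry for miR-23b-3p, so it could not be printed.
miR-23a-3p: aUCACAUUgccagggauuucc
miR-27a-3p: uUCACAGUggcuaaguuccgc
miR-27b-3p: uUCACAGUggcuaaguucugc
miR-24-3p: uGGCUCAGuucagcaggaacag
miR-24-2-5p: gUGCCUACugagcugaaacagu
miR-24-1-5p: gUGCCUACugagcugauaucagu

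miR-27a-3p and miR-27b-3p have the same seed and differ by 1 substitution, C19U, in which positions are counted from 1 at the 5′ end and the base of miR-27a-3p comes first. miR-24-3p is the same in Mir24-1 and Mir24-2, whereas their 5p products share a seed and part at the 3′ side. The hairpins of Mir23a and Mir23b, with their longest shared stretch in capitals, show how far a read can fall on both.
Mir23a: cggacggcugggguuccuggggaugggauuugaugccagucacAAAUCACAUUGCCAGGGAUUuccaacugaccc
Mir23b: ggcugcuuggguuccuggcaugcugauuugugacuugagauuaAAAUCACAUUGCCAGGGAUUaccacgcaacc

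This stretch, which holds the seed of miR-23a-3p, was 20 nt long, as was the longest one shared by Mir27a and Mir27b. For Mir24-1 and Mir24-2 it was 28 nt and held all of miR-24-3p, so that such a read matches both loci. How the authors counted reads with several matches is not stated. Among features matched to RefSeq hairpins, 25 had mature miRNAs that are all identical to those of another locus, and the highest of these held 3 reads in either library. Of 51 features with some but not all mature miRNAs identical, to which Mir24-2 belongs, 21 (41.2%) held more than 3 reads in at least 1 library, against 193 of 447 (43.2%) with none identical. The highest of these 51 was Mir92-1 with 5244 reads in mESCs and 29587 in prospermatogonia, so that a shared mature miRNA did not go with low reads in every feature. Of the 3 pairs looked up because they share a mature miRNA between clusters, as Mir24-1 and Mir24-2 do, Mir16-1 and Mir16-2 held 4 reads each in mESCs and 1 and 3 in prospermatogonia, Mir29b-1 and Mir29b-2 held 0 in both, and Mir181a-1 and Mir181a-2 held 2 and 3 in mESCs and 22 and 49 in prospermatogonia. The reads of Mir24-2 are therefore given as deposited, and the level of miR-24-3p cannot be read from them.

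On chromosome 8 (GRCm38, plus strand) Mir23a spans chr8:84208518-84208592, Mir27a chr8:84208672-84208758 and Mir24-2 chr8:84208815-84208921. GENCODE places Mir23a and Mir27a in no other gene, the Mir3074-2 hairpin on the other strand across Mir24-2, and the first exon of the lincRNA Gm26532 over its last 2 bases. On chromosome 13 the feature of Mir23b spans chr13:63300472-63300568 and that of Mir27b chr13:63300700-63300796, each wider than the RefSeq hairpin by 11 or 12 bases on either side. Both lie on the plus strand inside 2010111I01Rik (Aopep, an aminopeptidase gene). Mir23b is intronic in all of its annotated transcripts, and Mir27b overlaps an exon of a transcript annotated for nonsense-mediated decay. The Fancc gene, which encodes a protein of the Fanconi anemia DNA repair pathway, runs along the other strand.

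In the deposited log2 values, which were taken as log2 RPM (reads scaled to a library of 1000000), each feature could be turned back into whole reads. The totals implied were 449643 reads for mESCs and 2869578 for prospermatogonia, so that a count of 0 allows levels up to that of 3 reads, 6.67 RPM in mESCs and 1.05 RPM in prospermatogonia. Reads on miRNA features numbered 110455 and 155237. Intervals are 95% Wilson intervals, or derived from them, and cover counting error only, since PCR copies are not independent molecules.

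All listed hairpins of the clusters were detected in both libraries, and Mir27b was by far the most abundant. It held 1454 reads in mESCs, 3234 RPM (95% interval 3072 to 3404), and 1486 reads in prospermatogonia, 518 RPM (492 to 545). It ranked 13 among all features in mESCs and 21 in prospermatogonia. Each of the other hairpins held far fewer reads. Its neighbour Mir23b had 53 reads in mESCs, 118 RPM (90.1 to 154), and 59 in prospermatogonia, 20.6 RPM (15.9 to 26.5). Mir27a, the paralog of Mir27b, had 111 reads in mESCs, 247 RPM (205 to 297), and 23 in prospermatogonia, 8.02 RPM (5.34 to 12.0). Mir23a had 77 reads, 171 RPM (137 to 214), and 41 reads, 14.3 RPM (10.5 to 19.4), in the same order. Mir24-2 had 51 reads in mESCs, 113 RPM (86.3 to 149), and 12 in prospermatogonia, 4.18 RPM (2.39 to 7.31). Mir3074-1, which covers the Mir24-1 locus on the other strand, had 1 read in each library, within the limit of 3 reads. If the counts ignore strand, reads of Mir24-1 would fall on this feature too, but the use of strand is not stated.

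**Figure D1:**
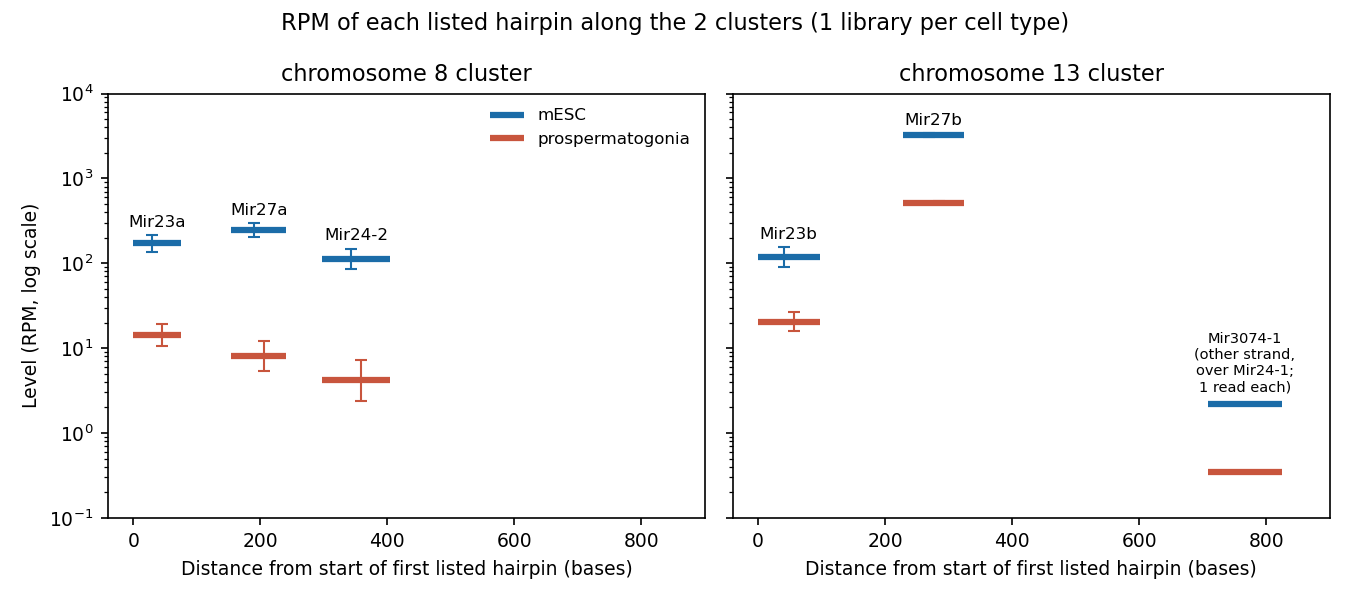
RPM (log scale) of each listed hairpin against its distance in bases from the start of the first listed hairpin of the cluster, with mESCs in blue and prospermatogonia in red. The width of a line is the width of the feature and whiskers are 95% Wilson intervals of the reads. Mir27b stands at 3234 RPM in mESCs and 518 RPM in prospermatogonia, and the other named members lie between 113 and 247 RPM in mESCs and between 4.18 and 20.6 RPM in prospermatogonia.

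Since the features differ in length, from 75 to 107 bases, levels between hairpins were also compared as reads per 100 bases. The Mir23b and Mir27b features are 97 bases long against hairpins of 74 and 73, while those of chromosome 8 equal their hairpins. This measure therefore lowers the chromosome 13 values against those of chromosome 8. The mature products of the members in RefSeq are 21 to 23 nt long, so their reads need not rise with the length of the feature. The values per base are given as a second description only. In mESCs Mir27b had 1499 reads per 100 bases, Mir27a 128, Mir23a 103, Mir23b 54.6 and Mir24-2 47.7. In prospermatogonia Mir27b had 1532 reads per 100 bases, followed by Mir23b with 60.8, Mir23a with 54.7, Mir27a with 26.4 and Mir24-2 with 11.2. Mir27b headed both orders and Mir24-2 closed both, while Mir27a went from the second to the fourth place. In RPM the interval of Mir27b lay clear of all others, while below it the intervals of each hairpin and the next one in the order overlapped in both libraries.

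The chromosome 13 cluster gave most of the reads of the clusters in either library. It held 1507 of their 1746 reads in mESCs, 86.3% (84.6% to 87.8%), and 1545 of 1621 in prospermatogonia, 95.3% (94.2% to 96.2%). The share was higher in prospermatogonia by 7.09 to 10.9 percentage points (Newcombe interval), a difference larger than the counting error that does not depend on how the libraries are scaled. Most of the chromosome 13 reads were those of Mir27b. Leaving Mir27b out, which was decided after its values were known, set Mir23b alone against all 3 hairpins of chromosome 8. Mir27a was among these, so the comparison is uneven. On this footing chromosome 13 held 18.2% of the reads in mESCs and 43.7% in prospermatogonia, less than the chromosome 8 cluster in both. In the Mir23 pair alone, Mir23b held 40.8% of the reads in mESCs and 59.0% in prospermatogonia.

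Within the chromosome 13 cluster the output was very uneven and nearly the same in both libraries. Of its listed reads Mir27b held 96.5% (95.4% to 97.3%) in mESCs and 96.2% (95.1% to 97.0%) in prospermatogonia, a difference of -0.302 points with an interval from -1.65 to 1.05. It exceeded Mir23b 27.4-fold (20.9 to 36.1) in mESCs and 25.2-fold (19.4 to 32.6) in prospermatogonia, and both features are 97 bases long. The share of Mir24-1, the third hairpin of this cluster, is not included.

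Within the chromosome 8 cluster the output was more even, and the order of the hairpins changed. In mESCs Mir27a led with 111 of 239 reads, 46.4% (40.2% to 52.8%), before Mir23a with 32.2% (26.6% to 38.4%) and Mir24-2 with 21.3% (16.6% to 27.0%). In prospermatogonia Mir23a led with 41 of 76 reads, 53.9% (42.8% to 64.7%), before Mir27a with 30.3% (21.1% to 41.3%) and Mir24-2 with 15.8% (9.27% to 25.6%). The share of Mir23a was thus 21.7 points higher in prospermatogonia (9.01 to 33.8) whereas that of Mir27a differed by -16.2 points (-27.3 to -3.48). For Mir24-2 the interval of the difference, from -14.2 to 5.34 points, included 0. Set against each other alone, Mir27a held 1.44 reads per read of Mir23a in mESCs (1.08 to 1.93) and 0.561 in prospermatogonia (0.338 to 0.930). Per base of the feature the ratios were 1.24 and 0.484, for which no interval was computed. By this measure the lead of Mir27a in mESCs was smaller and was not shown to exceed the counting error.

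The paralogs were compared pair by pair. For Mir27 the chromosome 13 copy prevailed in both libraries, with 92.9% of the reads of Mir27a and Mir27b in mESCs (91.5% to 94.1%) and 98.5% in prospermatogonia (97.7% to 99.0%). Mir27b exceeded Mir27a 13.1-fold (10.8 to 15.9) in mESCs and 64.6-fold (42.9 to 97.3) in prospermatogonia. Their 3p products have the same seed, but the 5p products do not, and the reads are not split by arm. Mir27a and Mir27b together made up 89.6% of the reads of the clusters in mESCs and 93.1% in prospermatogonia. No other mature miRNA of the RefSeq table shares the seed of the 3p products. For Mir23 the copies were more even. Mir23b held 53 of 130 reads in mESCs, 40.8% (32.7% to 49.4%), and 59 of 100 in prospermatogonia, 59.0% (49.2% to 68.1%), which is 18.2 points higher (5.20 to 30.4). Per base of the feature, which for Mir23b is wider than its hairpin, these shares were 34.7% and 52.7%. In both pairs the chromosome 13 copy took a larger share in prospermatogonia than in mESCs, beyond the counting error of the reads. The intervals do not cover reads placed on the wrong copy. Each pair shares a stretch of 20 nt, and miR-27a-3p and miR-27b-3p differ by 1 substitution. A read within the shared stretch matches both copies. How such reads were placed and how many mismatches were allowed is not stated, so the part of misplaced reads in these shares was not tested.

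**Figure D2:**
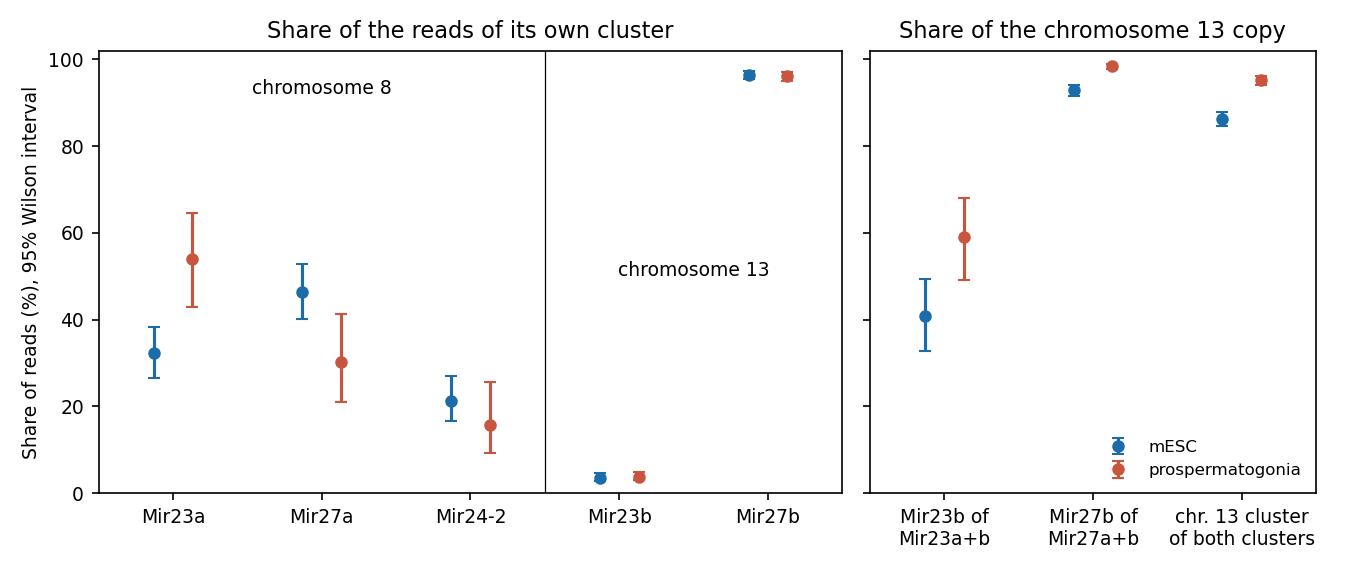
Share of reads in percent, with 95% Wilson intervals, for mESCs in blue and prospermatogonia in red. On the left is the share of each hairpin among the listed reads of its own cluster, and on the right the share of the chromosome 13 copy in the Mir23 pair, the Mir27 pair and the clusters as a whole. Mir27b sits at 96.5% and 96.2% of its cluster, whereas Mir23a goes from 32.2% to 53.9% of its own and Mir27a from 46.4% to 30.3%.

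Levels between the libraries were compared next. The summed RPM of the chromosome 8 cluster was 532 in mESCs and 26.5 in prospermatogonia, 20.1-fold lower. That of the chromosome 13 cluster was 3352 and 538, 6.22-fold lower. The intervals of these differences, from -4.70 to -3.96 and from -2.74 to -2.54 as log2 ratios of the reads per library total, do not overlap. On the scale of log2((RPM + 1) / (RPM + 1)), prospermatogonia over mESCs, the clusters had ratios of -4.28 and -2.64. All 5 listed members were at least 2-fold lower in prospermatogonia, but so were 164 of the 203 features that reached 10 RPM in either library (80.8%), whose median log2 ratio was -2.52. No member was at least 2-fold higher, as 9.85% of these features were. The counts are read against this background, in which most features were lower. Mir27a had a log2 ratio of -4.78, Mir24-2 of -4.46 and Mir23a of -3.49, with 24, 32 and 56 of the 203 features lower still. Mir27b at -2.64 and Mir23b at -2.46 lay near the median, with 92 and 106 features lower. Fewer cells of a type and less RNA per cell cannot be told apart in such bulk libraries.

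**Figure D3:**
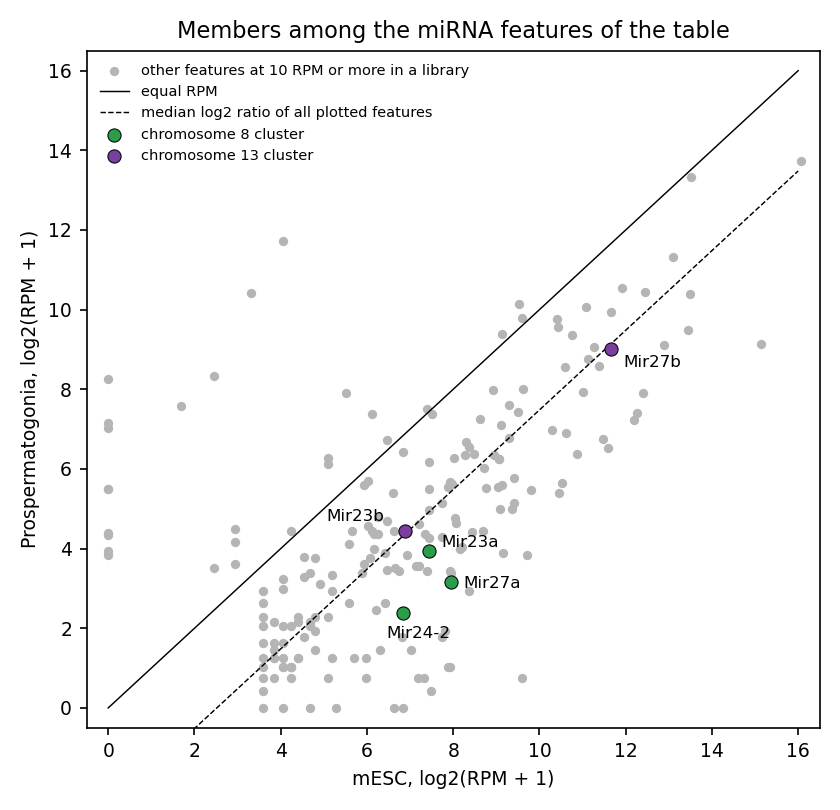
Log2(RPM + 1) in prospermatogonia against mESCs for the 203 features that reached 10 RPM in either library, with the chromosome 8 members in green and the chromosome 13 members in purple. The solid line marks equal RPM and the dashed line the median log2 ratio of -2.52. Mir23b and Mir27b lie near the dashed line, and Mir23a, Mir27a and Mir24-2 lie below it.

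Relative to the reads on all miRNA features, which are a smaller part of the prospermatogonia library (5.41% against 24.6%), the clusters also parted. Both percentages use the library totals implied by the reading as RPM. The paper describes the smRNAs of mESCs as mostly miRNAs, and how this goes together with 24.6% was not tested. Of the reads on miRNA features the chromosome 8 cluster made up 0.216% (0.191% to 0.246%) in the mESC library. In the prospermatogonia library it made up 0.0490% (0.0391% to 0.0613%), 4.42-fold less (3.42 to 5.72). The chromosome 13 cluster made up 1.36% (1.30% to 1.43%) and 0.995% (0.947% to 1.05%), 1.37-fold less (1.28 to 1.47). Of the single members, Mir27a was 6.78-fold lower by this measure (4.35 to 10.6), Mir24-2 5.97-fold (3.22 to 11.1), Mir23a 2.64-fold (1.81 to 3.85) and Mir27b 1.38-fold (1.28 to 1.48). For Mir23b the value was 1.26-fold with an interval from 0.873 to 1.83, so that no difference was detectable at this depth. With this scaling 3 of the 5 members, those of chromosome 8, were at least 2-fold lower, as were 81 of the 203 features (39.9%). With scaling to the median ratio of the features that reached 10 RPM in each library it was the same 3 members and 74 of the 203 features (36.5%).

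Markers of several cell types, among them the pluripotent state of the mESCs themselves, were read beside these values. The 12 pluripotency markers of the Mir290 and Mir302 clusters were all above 3 reads in mESCs and summed to 60659 RPM there, against 1761 RPM and 6 of 12 in prospermatogonia, where Mir302b, Mir302c and Mir367 were at 0. Mir126, the marker of endothelium, in which the miR-23, miR-27 and miR-24 families are well known, had 255 reads in mESCs (567 RPM) and 40 in prospermatogonia (13.9 RPM), 40.7-fold lower (29.2 to 56.7). Of 5 markers of mesenchyme and smooth muscle, 3 were above 3 reads in mESCs and 1 in prospermatogonia, with sums of 3198 and 91.3 RPM. These sums rested on Mir143. Together with Mir145 it held 1410 of 1438 reads in mESCs and 260 of 262 in prospermatogonia, and Mir143 had 98.8% and 100% of those. Mir199a-1 and Mir199a-2 were at 0 in both libraries and Mir145 in prospermatogonia. Mir202, a miRNA of the supporting cells of the gonad, had 0 reads in mESCs and 57 in prospermatogonia (19.9 RPM). The red blood cell markers Mir144 and Mir451 had 0 reads in mESCs and 0 and 1 in prospermatogonia. The pluripotency, endothelial and mesenchymal sums were thus lower in prospermatogonia, as the members were. Of the 203 features that reached 10 RPM in either library, 80.8% were at least 2-fold lower too. The part of these markers in the differences of the members was not tested.

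The unevenness of the clusters was set beside that of other neighbouring hairpins, by a rule chosen after the data were seen. Listed features on the same strand with gaps of up to 10 kb were taken as a group if at least 2 of them had more than 3 reads in a library and the group had 50 reads or more in each library, which gave 23 groups. With 96.5% of the reads on its highest feature, the chromosome 13 cluster stood at place 5 in mESCs, and with 96.2% at place 5 in prospermatogonia. The chromosome 8 cluster stood at places 19 and 18. The group of Mir15b and Mir16-2, whose Mir16-2 also shares a mature miRNA with another locus, was close to the chromosome 13 cluster with 96.7% on Mir15b in mESCs and 96.2% in prospermatogonia. The Mir17 to Mir92-1 group went from 87.1% to 97.2% on Mir92-1, a shift not seen for Mir27b. A change of the highest feature, from Mir27a to Mir23a on chromosome 8, was also seen in other groups, among them Mir181d and Mir181c (Mir181c in mESCs, Mir181d in prospermatogonia). The highest possible evenness depends on the number of features, and the chromosome 13 cluster entered with 2 and the chromosome 8 cluster with 3.

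**Figure D4:**
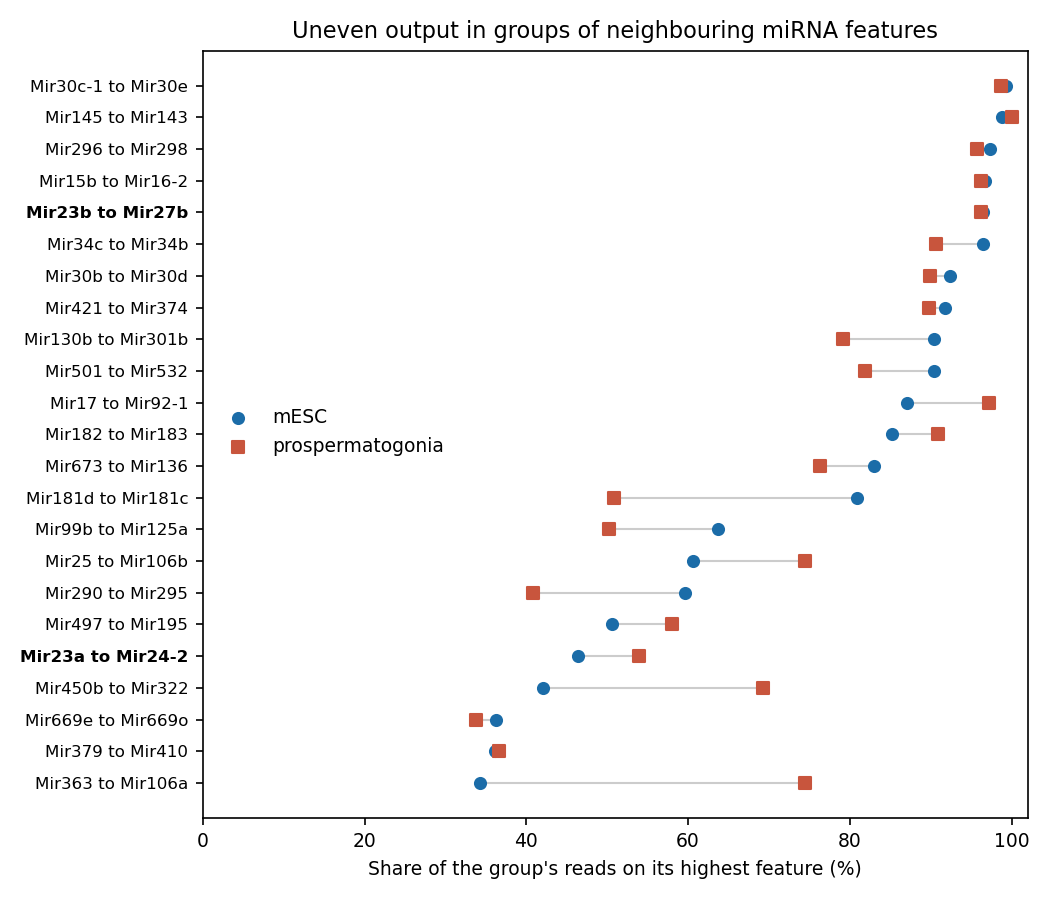
Share in percent of the reads of each group of neighbouring miRNA features that fell on its highest feature, for mESCs (blue circles) and prospermatogonia (red squares), with the 23 groups ordered by the mESC value and the member clusters in bold. Mir23b to Mir27b lies near the top at 96.5% and 96.2%, and Mir23a to Mir24-2 near the bottom at 46.4% and 53.9%.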

How the data were processed

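The authors made smRNA-seq libraries from size-selected cDNA, trimmed the reads (Trim Galore 0.4.1 in the submitters' processing notes) and mapped them with Bowtie. The methods name piPipes and mm9, the notes name GRCm38, and the Mir23a, Mir27a and Mir24-2 features have exactly their RefSeq GRCm38 positions. The authors deposited 1 log2 value per feature and library. Their scaling is not stated and was taken as log2 RPM, the unit the supplement gives for other RNA-seq data. In linear form the values were whole multiples of 1 read within 0.0165 reads, and the lowest value, 0.9 reads, was set to 0. Levels between libraries, library totals and the part of a library on miRNA features rest on this reading. The reads of each feature and the shares among them do not.

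Shares carry Wilson intervals, their differences Newcombe intervals, and folds the Wilson interval of the split of reads. Log2 ratios used a pseudocount of 1 RPM, which understates the change of low features. The members and lists were chosen with earlier results of these data known. Named besides the members are features over or within 2 kb of a member, features sharing a seed, 3 pairs with an identical mature miRNA, markers, and the 3 features nearest to the top hairpin of each cluster in log2(RPM + 1). Others were chosen after their values were seen. Of the 1638 features, 523 matched a RefSeq hairpin by position and strand. The scripts (Python 3.11.15, numpy 2.4.6, pandas 2.3.3) were tested on simulated reads.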

Additional observations from a re-analysis of the deposited data

How the results depend on the processing

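No replicate could be left out with 1 library per cell type. No paired analysis was possible because each cell type has 1 library and no test was run. Of 69 values under alternative settings, 52 stayed within the counting interval, or for counts within 1.5-fold, 17 moved and 0 were labelled reversed. A change of the leading cluster was counted as moved, as for chromosome 13 without Mir27b. Some of the 52 could not change. No member had the lowest value, and chromosome 13 has no listed Mir24 hairpin and features of equal length. The log2 ratio, -4.28 for chromosome 8 and -2.64 for chromosome 13, was -1.95 and -0.27 with scaling to the median ratio, and -2.13 and -0.45 with scaling to all miRNA reads, since these shift the prospermatogonia values up by a common factor. The members at least 2-fold lower were then 3 with either scaling in place of 5, and 3 with 10 RPM or more in both libraries, since only 3 members pass that filter. Without the Mir24 hairpins the mESC shares were 0.170% of miRNA reads for chromosome 8, 41.0% of its reads for Mir23a and 59.0% for Mir27a, and 88.9% for chromosome 13 of both clusters. Without Mir27b (chosen after the data were seen), which leaves Mir23b alone on chromosome 13, the last was 18.2%, and 43.7% in prospermatogonia. Without the 10 highest features of each library the clusters made up 0.779% and 4.91% of the mESC miRNA reads and 0.185% and 3.77% of those of prospermatogonia, since the denominator is smaller. Depth limits the chromosome 8 cluster most, with 76 reads in prospermatogonia.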

Other observations

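For the highest hairpin of each cluster, the features closest in level over the 2 libraries were looked up as a description, by the distance in log2(RPM + 1). Nearest to Mir27a were Mir5115 (111 reads in mESCs and 27 in prospermatogonia, distance 0.207), Mir1965 (108 and 28, 0.258) and Mir290 of the pluripotency cluster (149 and 19, 0.488). Nearest to Mir27b were Mir151 (1099 and 1529 reads, 0.406), Mir127 of the imprinted region on chromosome 12 (1191 and 1096, 0.524) and Mir93 (1011 and 1238, 0.586).

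The next listed features with reads on chromosome 8, named after their values were seen, are Mir181c and Mir181d, about 30 kb away on the other strand. Mir181c had 924 reads in mESCs and 704 in prospermatogonia, a log2 ratio of -3.06, and Mir181d had 219 and 728, a log2 ratio of -0.94. The ratios of Mir23a, Mir27a and Mir24-2, from -4.78 to -3.49, lay below both. The 4 miRNAs that share the seed of miR-24-3p, miR-5124b, miR-6369, miR-6410 and miR-6413, had no row matched here.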
